A study of Homo sapiens with 6 samples.

Results

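The 10 genes described here are effectors and widely used target genes of the Hippo pathway: the coactivators YAP1 and WWTR1, the transcription factors TEAD1 and TEAD4, the targets CYR61, CTGF and ANKRD1, and AMOTL2, LATS2 and AJUBA, which are regulators of the pathway. They were taken by gene name from a count table of 58735 genes, and each of the 10 was among the 14573 genes that passed the filter on low counts. The cells were 786-O, an established human renal carcinoma line, in 2 groups of 3 libraries. One group (sh-Control) carried a control hairpin and the other (sh-CBX7) a short hairpin RNA aimed at CBX7, a chromobox subunit of Polycomb repressive complexes; the count table names the second group's columns siCBX7. The labels give neither the hairpin sequence, nor whether 1 or several hairpins or clones were used, nor the time after delivery.

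In the Hippo pathway, the MST kinases activate the LATS kinases, which phosphorylate YAP (gene YAP1) and its paralog TAZ (gene WWTR1) and hold them in the cytoplasm. Unphosphorylated YAP and TAZ enter the nucleus, where they bind TEAD factors and raise transcription of genes such as CYR61, CTGF and ANKRD1. LATS2 and AMOTL2 are themselves YAP and TAZ targets and restrain them, so the pathway holds a negative feedback. Activity of the pathway is set to a large extent by phosphorylation and localisation of the proteins, neither of which RNA counts measure.

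Total counts were 16384151 to 18868874 per library. CBX7, the targeted gene, had 183 to 240 counts in the sh-Control libraries and 111 to 143 in the sh-CBX7 libraries (log2 fold change -0.71 with SE 0.13, edgeR adjusted p = 5.41e-05). Over all tested genes, 53.3% were called in the edgeR quasi-likelihood test at an adjusted p below 0.05, 26.1% as higher and 27.2% as lower in sh-CBX7, and the CPM (library-scaled counts) of the groups did not overlap for 59.0%. Of the 8 markers of renal epithelium or of this line (PAX8, PAX2, KRT8, KRT18, VIM, EPAS1, CDH6 and CA12), all 8 were tested; their summed level was 3835 to 3946 CPM in sh-Control and 3735 to 3955 CPM in sh-CBX7. Within that sum KRT8 and KRT18 rose (log2 fold changes 0.44 and 0.43 in the edgeR test), 4 fell, among them CA12, CDH6 and PAX8 (-1.22, -0.85 and -0.32), and 2 were not called. Summed markers of immune cells (6 genes) lay at 1.21 to 2.10 CPM in sh-Control and 0.955 to 2.03 CPM in sh-CBX7, and those of fibroblasts and smooth muscle (8 genes) at 12.02 to 12.9 and 11.7 to 13.3 CPM. Of the latter, 4 were tested: LUM was called as higher (0.73), COL1A1 and PDGFRA as lower (-1.03 and -1.88), and PDGFRB was not called. The 6 endothelial markers summed to 2.58 to 3.56 CPM in sh-Control and 3.99 to 5.25 CPM in sh-CBX7, and 1 of the 2 tested was called, PECAM1, as higher (edgeR adjusted p = 0.0349, and 0.0787 to 0.128 without sh-Control replicate 1 or 2 or sh-CBX7 replicate 1 or 3; DESeq2 adjusted p = 0.0676). PTPRC, CD3E and CDH5 had 0 counts in each library. The part of these low levels in the results was not tested.

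Of the 10 genes, 4 rose, 4 fell and 2 were not called in the edgeR test. ANKRD1, CYR61, YAP1 and CTGF were higher in sh-CBX7, with log2 fold changes of 1.88 to 0.21. AMOTL2, WWTR1, LATS2 and TEAD1 were lower, with -1.09 to -0.23. The background is 26.1% of tested genes higher and 27.2% lower. The median log2 fold change of the 10 was -0.01, against -0.006 over all tested genes; the median absolute value was 0.45, against 0.33. The CPM of the groups did not overlap for 9 of the 10, against 59.0% of all tested genes. TEAD4 and AJUBA are among these 9 but were not called, and the TEAD4 groups nearly met, at 39.97 and 40.01 CPM. The falls of TEAD1 and LATS2 were near the threshold, and each lost its call under several other settings, given beside their values. The count of 4 lower was 2 without sh-Control replicate 3, without sh-CBX7 replicate 2 and with upper quartile normalisation. In bulk RNA, a change in the share of cells that express a gene and a change per cell cannot be told apart.

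**Figure D1:**
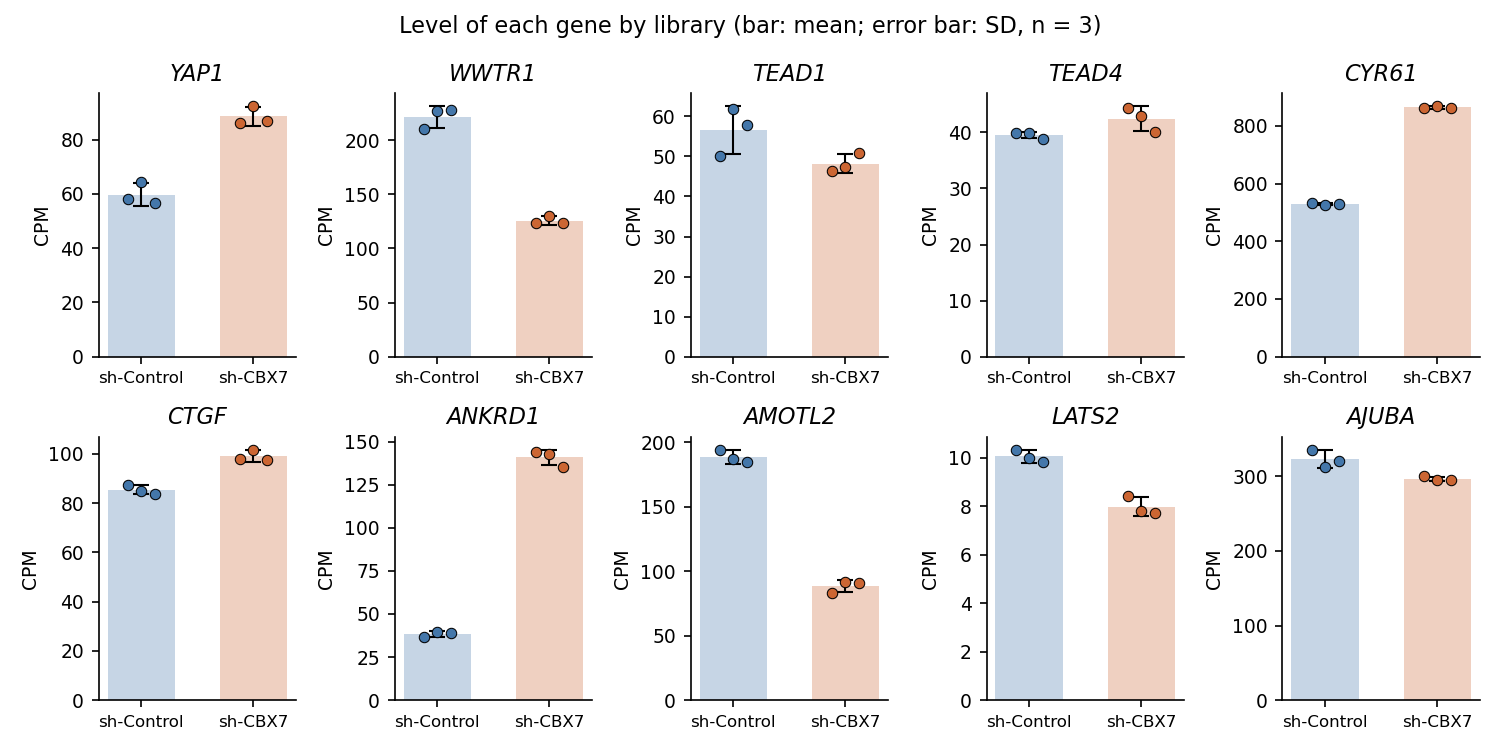
CPM (vertical axis, from 0) of each of the 10 genes in the sh-Control and sh-CBX7 libraries; points are libraries, bars the mean and error bars the SD (n = 3). ANKRD1 shows the largest fold difference, from at most 39.5 CPM in sh-Control to at least 135.6 CPM in sh-CBX7, and TEAD1 is the gene whose groups overlap.

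**Figure D2:**
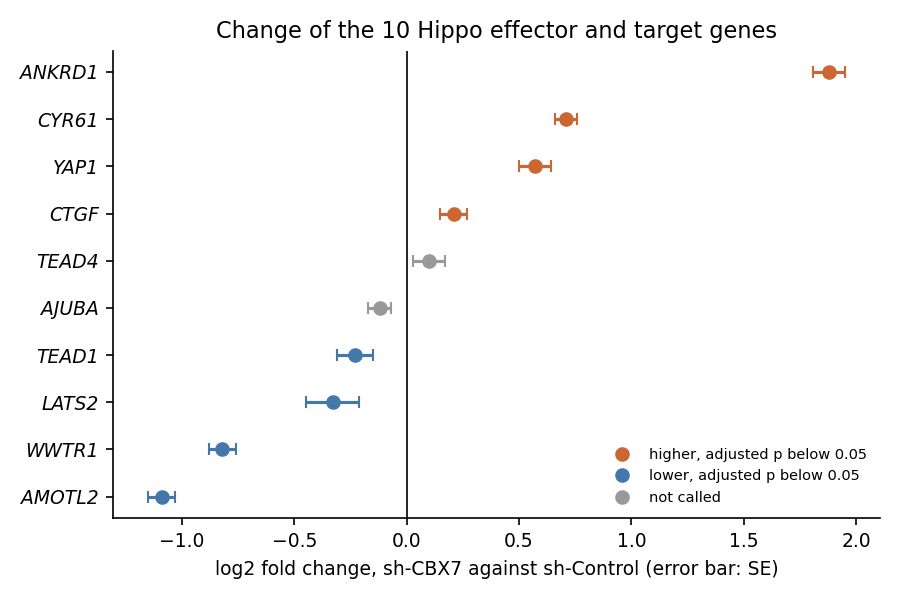
Log2 fold change of each gene in sh-CBX7 against sh-Control (horizontal axis) with its SE, coloured by the edgeR call at an adjusted p below 0.05. The values run from -1.09 for AMOTL2 to 1.88 for ANKRD1, with TEAD4 and AJUBA not called.

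The DNA motif of TEAD factors was searched in the sequence before the start of each gene, since several of these targets are known to be bound there. Windows of 250 bases before annotated starts were read from RefSeq sequences on GRCh38.p14, and 7 of the 10 genes matched, with 10 windows. CYR61, TEAD1 and TEAD4 had no entry. The motif core CATTCC was searched on both strands, where its reverse complement reads GGAATG. At least 1 match stood in 11.9% of all 35116 windows, at least 2 in 0.94% and at least 3 in 0.0826%. Of the 10 windows of these genes, 5 held a match, each of a different gene. The CTGF window held 3 matches, beginning 169, 104 and 95 bases before the start, and the ANKRD1 window held 2, beginning 220 and 128 bases before the start. The YAP1 window held 1, 162 bases before the start. AMOTL2 has 2 windows, of which the one at the downstream start held 1 match, 69 bases before that start. The second AJUBA window held 1 match, and the windows of WWTR1 and LATS2 held none. These starts are those of RefSeq and can differ from the gene coordinates of the count table. The ANKRD1 window, 90921088 to 90921337, reaches into the coordinates of that gene, 90912096 to 90921276. The matching windows of AMOTL2 and AJUBA lie within the coordinates of their genes. A match is a description of the letters and does not show binding in these cells.

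The windows of 2 targets that rose, of the coactivator that rose and of the target that fell furthest follow. They were taken from the 5 windows with a match and run 5′ to 3′ on the strand of the gene, with the motif in capitals. The windows of WWTR1, the coactivator that fell, and the other AMOTL2 window held no match and are not shown. CTGF is chr6:131951373-131951622 (minus strand), ANKRD1 is chr10:90921088-90921337 (minus strand), YAP1 is chr11:102110197-102110446 (plus strand) and AMOTL2 is chr3:134374448-134374697 (minus strand).
CTGF: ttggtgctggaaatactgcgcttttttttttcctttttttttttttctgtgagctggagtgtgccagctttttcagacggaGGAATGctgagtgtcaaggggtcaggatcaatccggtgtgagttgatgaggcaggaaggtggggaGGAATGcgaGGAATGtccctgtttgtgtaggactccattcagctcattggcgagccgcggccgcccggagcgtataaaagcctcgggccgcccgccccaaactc
ANKRD1: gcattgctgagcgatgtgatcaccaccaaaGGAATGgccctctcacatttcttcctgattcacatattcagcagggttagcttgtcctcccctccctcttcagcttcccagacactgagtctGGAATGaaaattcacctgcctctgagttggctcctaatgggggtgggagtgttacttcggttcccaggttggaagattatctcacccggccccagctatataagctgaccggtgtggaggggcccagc
YAP1: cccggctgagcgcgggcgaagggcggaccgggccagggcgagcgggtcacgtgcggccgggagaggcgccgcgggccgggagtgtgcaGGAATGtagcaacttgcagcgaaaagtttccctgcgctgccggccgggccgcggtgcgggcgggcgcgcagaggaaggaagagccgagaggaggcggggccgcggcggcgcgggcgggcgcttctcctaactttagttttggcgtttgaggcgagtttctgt
AMOTL2: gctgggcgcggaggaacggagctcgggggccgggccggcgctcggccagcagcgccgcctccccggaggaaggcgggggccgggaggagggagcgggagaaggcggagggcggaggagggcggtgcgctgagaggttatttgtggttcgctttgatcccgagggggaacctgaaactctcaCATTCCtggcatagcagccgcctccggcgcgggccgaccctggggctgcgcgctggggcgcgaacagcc
In CTGF, the pair of matches nearest the start are 3 bases apart. CTGF, with 3 matches, had a log2 fold change of 0.21, and ANKRD1, with 2, had 1.88. Whether the number of matches is related to the size of the change was not tested.

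The coactivator genes moved in opposite directions. YAP1 (ENSG00000137693; protein coding; GRCh38 chromosome 11, 102110461 to 102233423, plus strand) had 57.9, 64.5 and 56.7 CPM in the sh-Control libraries and 86.2, 92.3 and 86.9 CPM in the sh-CBX7 libraries. The lowest sh-CBX7 library thus lay above the highest sh-Control library. Its mean rose from 59.7 ± 4.19 to 88.5 ± 3.35 CPM (mean ± SD, n = 3 each; log2 fold change 0.57 with SE 0.07, edgeR adjusted p = 2.56e-07). WWTR1 (ENSG00000018408; protein coding; chromosome 3, 149517235 to 149736714, minus strand) encodes TAZ. It had 210.0, 227.0 and 227.5 CPM in sh-Control and 123.7, 130.1 and 123.3 CPM in sh-CBX7, so its groups were also apart, in the other direction. Its mean fell from 221.5 ± 9.97 to 125.7 ± 3.84 CPM (mean ± SD, n = 3 each; log2 fold change -0.82 with SE 0.06, edgeR adjusted p = 6.47e-11). The antisense gene WWTR1-AS1 shares 795 exonic bases with WWTR1 and had 3 to 16 counts per library, against 2155 to 4129 for WWTR1.

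Levels of different genes are compared in TPM, which scale counts by library total and by the gene length in the deposited table. On that scale the sh-Control libraries held 2.71, 2.63 and 3.00 times as much WWTR1 as YAP1, and the sh-CBX7 libraries 1.07, 1.05 and 1.06 times. In CPM, WWTR1 stayed above YAP1 in each sh-CBX7 library. Per length, the pair were at nearly the same level in sh-CBX7, 46.4 ± 1.55 TPM for WWTR1 and 43.6 ± 1.75 TPM for YAP1 (SD, n = 3), with overlapping ranges. The log2 ratio of WWTR1 to YAP1 fell from 1.47 ± 0.10 to 0.09 ± 0.01 (mean ± SD, n = 3 each; exact two-sided permutation p = 0.1). This p is the smallest that 3 against 3 libraries can give; over the 8 level sums, shares and ratios tested this way the adjusted p was 0.16. The summed level of the pair was 105.0, 119.1 and 112.3 TPM in sh-Control and 88.3, 93.8 and 87.9 TPM in sh-CBX7. The sum was thus lower in each sh-CBX7 library (exact two-sided permutation p = 0.1, the smallest possible; adjusted p = 0.16).

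**Figure D3:**
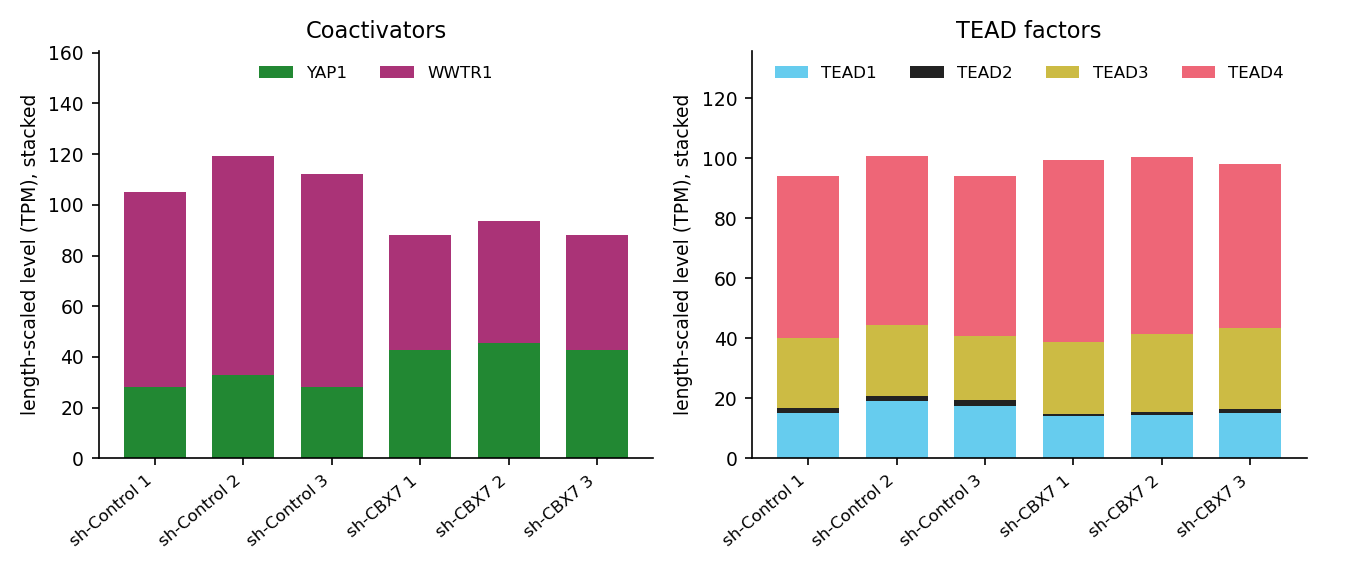
Length-scaled level (TPM, stacked bars from 0) of YAP1 and WWTR1 (left) and of TEAD1 to TEAD4 (right) in each of the 6 libraries. WWTR1 shrinks and YAP1 grows in the 3 sh-CBX7 libraries, while the TEAD sum lies between 94.1 and 100.6 TPM in all 6.

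The TEAD factors bring YAP and TAZ to DNA. TEAD1 and TEAD4 had log2 fold changes of -0.23 and 0.10. TEAD1 (ENSG00000187079; protein coding; chromosome 11, 12674591 to 12944483, plus strand) had 50.1, 61.9 and 57.7 CPM in sh-Control and 46.3, 47.5 and 50.8 CPM in sh-CBX7. The ranges overlapped, since sh-Control replicate 1 lay below sh-CBX7 replicate 3. Its mean was 56.6 ± 6.01 and 48.2 ± 2.35 CPM (mean ± SD, n = 3 each; log2 fold change -0.23 with SE 0.08, edgeR adjusted p = 0.0158). The call was lost without sh-Control replicate 2 (edgeR adjusted p = 0.0955), without sh-Control replicate 3 (0.0509), without sh-CBX7 replicate 1 (0.076), without sh-CBX7 replicate 2 (0.059) and with upper quartile normalisation (0.0547).

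TEAD4 (ENSG00000197905; protein coding; chromosome 12, 2959330 to 3040673, plus strand) had 39.97, 39.8 and 38.8 CPM in sh-Control and 44.4, 42.9 and 40.01 CPM in sh-CBX7. The groups did not overlap in CPM, but the highest sh-Control and the lowest sh-CBX7 value nearly met. In TPM the groups overlapped. The difference was not called (log2 fold change 0.10 with SE 0.07, edgeR adjusted p = 0.25). Of the paralogs outside the list, TEAD3 had a log2 fold change of 0.18 with SE 0.09 (edgeR adjusted p = 0.109; called with upper quartile normalisation, edgeR adjusted p = 0.0429). TEAD2, at 28 to 29 counts per library in sh-Control and 13 to 19 in sh-CBX7, had -0.80 (SE 0.33, edgeR adjusted p = 0.0427), and lost the call without any of the 3 sh-Control libraries or without sh-CBX7 replicate 1 or 3 (edgeR adjusted p = 0.0625 to 0.171), with upper quartile normalisation (0.0564), without the low count filter (0.0627) and with DESeq2 (DESeq2 adjusted p = 0.0865).

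In CPM, TEAD1 stood above TEAD4 in each library. The deposited gene lengths are 10279 bases for TEAD1 and 2272 bases for TEAD4, and the order of the 2 depends on this scaling. Per length, TEAD4 was the most abundant TEAD in each library. It made up 56.6% ± 0.858 of the summed TEAD1 to TEAD4 level in sh-Control and 58.4% ± 2.77 in sh-CBX7 (mean ± SD, n = 3 each; exact two-sided permutation p = 0.4). TEAD3 made up 23.7% and 25.9%, TEAD1 17.9% and 14.7%, and TEAD2 1.84% and 1.02%. The TEAD1 share was 15.9, 19.1 and 18.6% in sh-Control and 14.1, 14.3 and 15.6% in sh-CBX7, lower in each sh-CBX7 library by this measure (exact two-sided permutation p = 0.1, the smallest possible; adjusted p = 0.16). The summed TEAD level was 96.3 ± 3.75 TPM in sh-Control and 99.3 ± 1.18 TPM in sh-CBX7 (mean ± SD, n = 3 each; exact two-sided permutation p = 0.4), with overlapping ranges. VGLL4, a cofactor that competes with YAP and TAZ for TEAD binding, rose from 33.3 ± 0.303 to 51.4 ± 1.67 CPM (mean ± SD, n = 3 each; log2 fold change 0.62 with SE 0.07, edgeR adjusted p = 1.41e-07). VGLL1, VGLL2 and VGLL3 were under the filter. Of 7 tested genes of the TEAD, coactivator and VGLL list, 2 rose and 3 fell, against 26.1% higher and 27.2% lower of all tested genes. YAP1, WWTR1, TEAD1 and TEAD4 are among the 10 genes and are counted again here. Of the 3 falls, those of TEAD1 and TEAD2 lost their call in the settings given above.

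The 3 classic target genes ANKRD1, CYR61 and CTGF rose, by very different amounts. AMOTL2 and LATS2, which are also targets, were lower, LATS2 near the threshold, and are described below. ANKRD1 (ENSG00000148677; protein coding; chromosome 10, 90912096 to 90921276, minus strand) encodes an ankyrin repeat protein that is found in the nucleus and in muscle sarcomeres. It had 36.5, 39.5 and 38.9 CPM in sh-Control and 144.2, 142.7 and 135.6 CPM in sh-CBX7. The 3 sh-CBX7 libraries all lay far above the sh-Control libraries. Its mean rose 3.67-fold, from 38.3 ± 1.58 to 140.8 ± 4.61 CPM (mean ± SD, n = 3 each; log2 fold change 1.88 with SE 0.07, edgeR adjusted p = 2.65e-16). Ranked from the highest, its log2 fold change stood at 183 of 14573 tested genes.

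CYR61 (also called CCN1; ENSG00000142871; protein coding; chromosome 1, 85580761 to 85583962, plus strand) encodes a secreted matricellular protein that binds integrins. It had 532.1, 525.3 and 528.0 CPM in sh-Control and 861.5, 868.6 and 861.2 CPM in sh-CBX7. The groups were apart, and the spread within each was small. Its mean rose 1.63-fold, from 528.4 ± 3.45 to 863.8 ± 4.17 CPM (mean ± SD, n = 3 each; log2 fold change 0.71 with SE 0.05, edgeR adjusted p = 4.02e-11). CTGF (also called CCN2; ENSG00000118523; protein coding; chromosome 6, 131948176 to 131951373, minus strand) is its paralog, a secreted protein linked to fibrosis. It had 87.3, 85.1 and 83.7 CPM in sh-Control and 97.9, 101.7 and 97.6 CPM in sh-CBX7. The groups did not overlap, but the step was small: the mean rose 1.16-fold, from 85.4 ± 1.84 to 99.1 ± 2.29 CPM (mean ± SD, n = 3 each; log2 fold change 0.21 with SE 0.06, edgeR adjusted p = 0.00446).

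CYR61 thus rose further than CTGF in these libraries. Per length, CYR61 was 5.81, 5.88 and 6.01 times the level of CTGF in sh-Control and 8.38, 8.14 and 8.41 times in sh-CBX7 (exact two-sided permutation p = 0.1, the smallest possible; adjusted p = 0.16). This ratio, like the level sums and the shares of TEADs other than TEAD4, was chosen after the values were seen. Of the other CCN genes, NOV rose by 0.48 (SE 0.10, edgeR adjusted p = 0.000468) and WISP2 by 0.90 (SE 0.20, edgeR adjusted p = 0.0007) on the log2 scale, while WISP1 and WISP3 were under the filter. All 4 tested CCN genes were therefore higher in sh-CBX7, against 26.1% of all tested genes. CYR61 and CTGF are among the 10 genes and are counted again here. WISP2 was low, at 1.98 to 2.76 CPM in sh-Control and 4.23 to 4.85 CPM in sh-CBX7.

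None of the 3 pathway regulators among the 10 genes rose in the edgeR test: AMOTL2 and LATS2 fell and AJUBA was not called. AMOTL2 (ENSG00000114019; protein coding; chromosome 3, 134355874 to 134375479, minus strand) encodes an angiomotin family scaffold that binds YAP and TAZ and activates LATS kinases. It had 194.3, 187.0 and 184.4 CPM in sh-Control and 83.5, 91.7 and 91.1 CPM in sh-CBX7. Each sh-CBX7 library was below each sh-Control library. Its mean fell 2.13-fold, from 188.6 ± 5.14 to 88.8 ± 4.59 CPM (mean ± SD, n = 3 each; log2 fold change -1.09 with SE 0.06, edgeR adjusted p = 9.9e-13), which ranked 393 from the lowest of 14573 tested genes. Of its paralogs, AMOT also fell (log2 fold change -0.79 with SE 0.14, edgeR adjusted p = 3.53e-05). AMOTL1 had 19.8, 20.2 and 20.2 CPM in sh-Control and 18.9, 22.6 and 18.8 CPM in sh-CBX7, which overlapped and was not called (edgeR adjusted p = 0.998).

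LATS2 (ENSG00000150457; protein coding; chromosome 13, 20973032 to 21061547, minus strand) encodes a kinase of YAP and TAZ, and was the lowest of the 10 genes. It had 172, 182 and 160 counts in sh-Control and 159, 129 and 137 in sh-CBX7, or 10.3, 10.01 and 9.82 CPM against 8.44, 7.79 and 7.73 CPM. The CPM groups did not overlap. Its log2 fold change was -0.33 with SE 0.12 (edgeR adjusted p = 0.0282). The call was lost without sh-Control replicate 1 (edgeR adjusted p = 0.0574), replicate 2 (0.0508) or replicate 3 (0.0513), without sh-CBX7 replicate 2 (0.0688) or replicate 3 (0.085), with upper quartile normalisation (0.061), without the low count filter (0.0564) and with DESeq2 (DESeq2 adjusted p = 0.0711). Its paralog LATS1 had 11.3, 15.8 and 15.0 CPM in sh-Control and 8.92, 9.72 and 8.30 CPM in sh-CBX7, and fell by 0.65 on the log2 scale (SE 0.13, edgeR adjusted p = 0.000287).

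AJUBA (ENSG00000129474; protein coding; chromosome 14, 22971174 to 22982642, minus strand) encodes a LIM protein that binds LATS kinases at junctions and inhibits them. It had 335.8, 312.3 and 320.1 CPM in sh-Control and 299.9, 294.6 and 294.5 CPM in sh-CBX7. The sh-CBX7 libraries were all lower, yet the difference missed the threshold (log2 fold change -0.12 with SE 0.05, edgeR adjusted p = 0.0557). It was called without sh-Control replicate 2 (edgeR adjusted p = 0.0312). Its relatives LIMD1 and WTIP had log2 fold changes of 0.04 and 0.01 and were not called (edgeR adjusted p = 0.767 and 0.941). Among the other LIM proteins of the family, LPP rose by 1.33 (SE 0.09, edgeR adjusted p = 6.5e-11), ZYX had -0.73 (SE 0.06, edgeR adjusted p = 1.55e-09) and TRIP6 had -0.32 (SE 0.06, edgeR adjusted p = 0.000131).

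The order of the 10 genes by length-scaled level changed between the groups. In sh-Control it was CYR61 (673.3 TPM), AJUBA (168.8), CTGF (114.2), AMOTL2 (98.6), WWTR1 (82.4), ANKRD1 (60.6), TEAD4 (54.4), YAP1 (29.7), TEAD1 (17.2) and LATS2 (5.64 TPM). No neighbours in that order had overlapping ranges, although ANKRD1 (56.7 to 63.9 TPM) and TEAD4 (53.2 to 56.0 TPM) were close. In sh-CBX7 it was CYR61 (1092 TPM), ANKRD1 (220.8), AJUBA (153.8), CTGF (131.4), TEAD4 (58.0), WWTR1 (46.4), AMOTL2 (46.0), YAP1 (43.6), TEAD1 (14.6) and LATS2 (4.44 TPM). ANKRD1 went from the sixth place to the second. These places depend on scaling by the deposited gene lengths. In CPM, the sh-Control mean of ANKRD1 (38.3) lay below those of YAP1 (59.7) and TEAD1 (56.6). Its sh-CBX7 mean (140.8 CPM) lay below those of CYR61 (863.8 CPM) and AJUBA (296.3 CPM). WWTR1, AMOTL2 and YAP1 had ranges that overlapped in sh-CBX7 (45.3 to 48.1, 43.4 to 47.7 and 42.6 to 45.6 TPM). Within each of these libraries YAP1 was the lowest of the 3, while the order of WWTR1 and AMOTL2 differed between libraries.

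Upstream of YAP and TAZ, genes of the Hippo cascade were called in both directions, against a background of 26.1% higher and 27.2% lower over all tested genes. Of 16 tested genes for kinases, adaptors and activators, including LATS2, 5 rose and 7 fell (median log2 fold change -0.05), and 4 were not called. The count of 7 was 3 without sh-CBX7 replicate 2 and 4 with upper quartile normalisation. WWC1, which encodes the activator KIBRA, rose from 126.9 ± 1.63 to 196.7 ± 4.96 CPM (mean ± SD, n = 3 each; log2 fold change 0.63). Its paralog WWC3 fell from 44.2 ± 3.27 to 22.2 ± 0.999 CPM (mean ± SD, n = 3 each; log2 fold change -0.99). The kinase gene MAP4K4 rose by 0.64 and the FERM domain gene FRMD6 by 0.34, and NF2, which encodes the tumour suppressor merlin, fell by 0.52 on the log2 scale (SE 0.06, 0.06 and 0.07; edgeR adjusted p = 1e-08, 7.13e-05 and 6.31e-07). Of 20 tested scaffold and STRIPAK phosphatase genes, including AMOTL2 and AJUBA, 1 rose, 5 fell and 14 were not called (median -0.11), against 26.1% higher and 27.2% lower of all tested genes. The one that rose was RASSF1, by 0.55. The junction phosphatase PTPN14, a YAP binder and itself a target, fell from 78.5 ± 8.98 to 47.7 ± 1.83 CPM (mean ± SD, n = 3 each; log2 fold change -0.72 with SE 0.08, edgeR adjusted p = 5.93e-08).

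A 22-gene signature of YAP and TAZ targets drawn from many cancers was used as a wider view. It shares 5 genes with the 10. Of 21 tested signature genes, 9 rose, 8 fell and 4 were not called, with a median log2 fold change of 0.01 against -0.006 over all tested genes. Without the shared 5, the counts were 6 higher, 6 lower and 4 not called of 16, with a median of 0.00. The share higher and the share lower both stood above the background of 26.1% and 27.2%, and the list as a whole had no common direction. The count of 8 lower was 6 without sh-Control replicate 2 and 7 in several other fits. The count of 9 higher was 10 with upper quartile normalisation and 9 in the other fits. F3, which encodes tissue factor and starts blood clotting, rose from 46.6 ± 2.96 to 106.6 ± 3.53 CPM (mean ± SD, n = 3 each; log2 fold change 1.19 with SE 0.07, edgeR adjusted p = 1.22e-12). GADD45A, a growth arrest gene, rose by 0.53 on the log2 scale (SE 0.06, edgeR adjusted p = 3.47e-08). Of the 6 that were lower outside the shared 5, PTPN14, described above, had the lowest log2 fold change, -0.72. FOXF2 was under the filter.

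Of 7 tested genes from a second set of common targets, 4 rose, 2 fell and 1 was not called (median 0.21), against 26.1% higher and 27.2% lower of all tested genes. INHBA, an activin subunit, rose by 1.10, and THBS1, a matrix glycoprotein, by 0.54 on the log2 scale. EDN1, the endothelin peptide, rose from 7.61 ± 0.0712 to 56.8 ± 3.55 CPM (mean ± SD, n = 3 each; log2 fold change 2.90). ARHGAP29, a RhoA inactivator, fell by 0.49 on the log2 scale (edgeR adjusted p = 1.06e-06; edgeR adjusted p for INHBA, THBS1 and EDN1 from 7.53e-09 to 6.4e-17). These genes also respond to other signals, and the part of YAP and TAZ in their change was not tested.

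**Figure D4:**
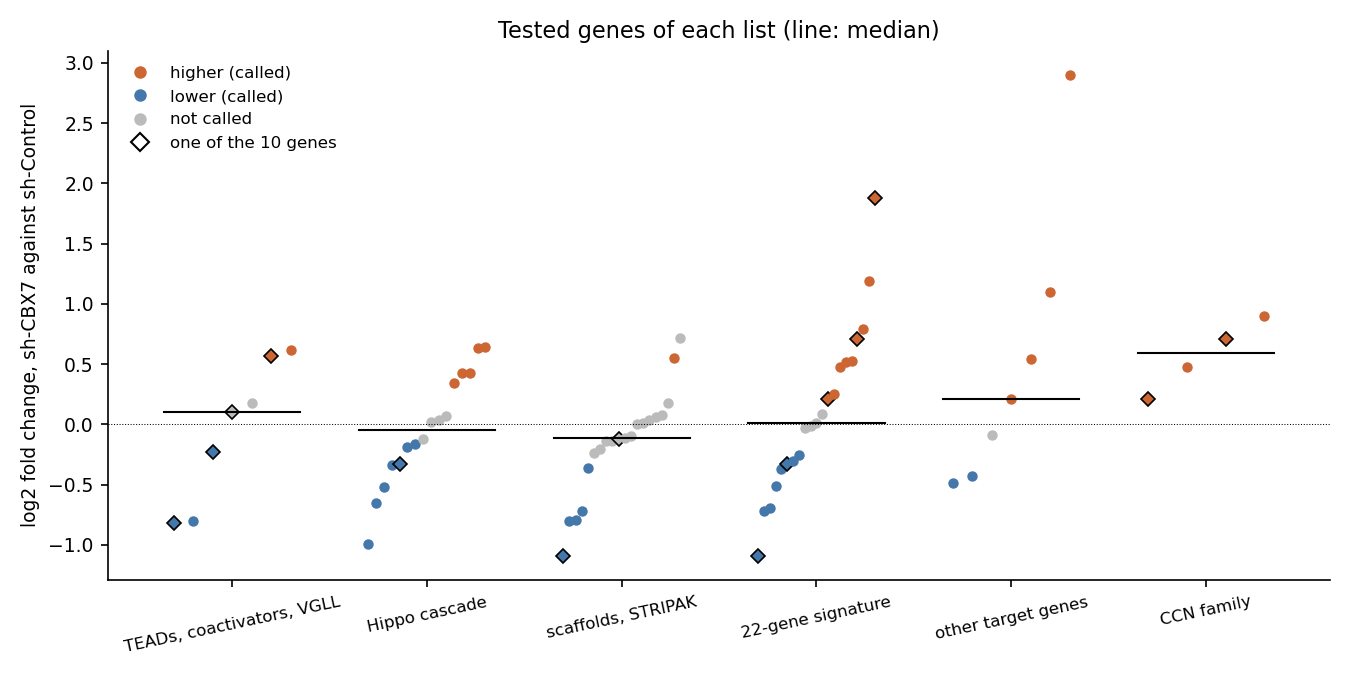
Log2 fold change in sh-CBX7 against sh-Control (vertical axis) of each tested gene in 6 lists (horizontal axis), coloured by the edgeR call; diamonds with a dark edge are the 10 genes and lines are list medians. The 22-gene signature has a median of 0.01 with genes on both sides of 0, and the 4 CCN genes all lie above 0.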

How the data were processed

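Messenger RNA from 786-O cells was sequenced in 6 libraries, 3 per group. The authors deposited whole-number read counts per gene, without normalization. The submitters' processing notes name HISAT2 2.0.5 and featureCounts 1.5.0-p3, with FastQC and Trimmomatic, and build hg19, but the table's gene coordinates equalled GENCODE 29 (GRCh38) starts and ends in 99.98% of 58735 genes, and GRCh38 positions are given. The strand setting is not given in the sources used here, so reads of antisense partners cannot be told apart. Genes that share exonic bases with the 10 genes had at most 16 counts per library. These counts do not show how many reads fell in the shared bases. The gene length in bases that the authors deposited scaled counts to TPM.

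Each column was assigned to its library by target gene and replicate number. Counts were filtered with filterByExpr, normalised with TMM and tested with edgeR 4.0.16 (R 4.3.3; glmQLFit and glmQLFTest, unpaired), with Benjamini-Hochberg adjustment over all 14573 genes and calls below 0.05. The SE is the absolute log2 fold change divided by the square root of F. CPM uses TMM-scaled library sizes. Ratios and shares of TPM were compared by exact permutation of libraries. Alternatives were other normalisations and filters, DESeq2 1.42.0, limma 3.58.1 voom, the replicate number as a block, and leaving out each library.

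The 10 genes and the lists were chosen with earlier results of these data known. Beside the 10 genes and CBX7, the text names paralogs and up to 5 tested genes of smallest p per list; the genes of marker lists named by level, and the rest named under the filter, follow from the lists. One further gene of the second target list was left out of its counts and is not reported here. Whether libraries stem from separate cultures is not labelled; the p-values therefore cover the differences among these libraries alone, possibly technical ones. Within groups, pairs of libraries differed with a chi-square per gene of 2.85 to 9.23, above sampling noise, and highest for pairs with sh-Control replicate 1.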

Additional observations from a re-analysis of the deposited data

How the results depend on the processing

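Of 51 named and tested genes, 43 stayed on the same side of the threshold in each of the 14 alternative fits that tested them, and 0 called genes reversed. Genes that were not called were not compared by sign. The exceptions were TEAD1, TEAD2, TEAD3, LATS2, AJUBA, SIKE1, PECAM1 and KDR, whose adjusted p crossed the threshold in at least 1 fit. The count of 4 higher among the 10 genes was 4 in each fit. The count of 4 lower was 2 with upper quartile normalisation and 2 to 3 when 1 library was left out. Cascade genes counted as lower, 7, were 4 with upper quartile normalisation and 3 to 7 when 1 library was left out; the cause was not tested. Upper quartile normalisation moved the median log2 fold change of all genes by 0.049. YAP1, WWTR1, CYR61, CTGF, ANKRD1 and AMOTL2 were called in all 14 fits, CTGF with an adjusted p of at most 0.0347. Depth limits low genes: the SE was 0.12 for LATS2 and 0.05 for CYR61.

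With the replicate number as a block, 4 of the 10 genes were higher and 5 lower, AJUBA being added (edgeR adjusted p = 0.0318), and 3972 genes were higher and 4126 lower in all. The share of TEAD4 differed by 1.85 percentage points and the log2 ratio of WWTR1 to YAP1 by -1.39 in the paired form, with exact sign-flip p = 0.5 and 0.25, the second being the smallest that 3 pairs allow. Deviations of libraries with the same number correlated at 0.055, 0.061 and 0.035, and each library correlated best with its own number, a weak hint from the data and not the design; the numbers were not taken as pairs.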
